A study of Homo sapiens with 12 samples.

Results

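The genes described here are 10 transcription factors that set and keep epithelial identity, namely TP63, GATA3, ELF3, EHF, GRHL2, GRHL3, OVOL1, KLF4, KLF5 and SOX9. They were chosen by name, and all 10 were found by their Entrez gene IDs among the 23459 genes of the count table. A filter on low counts was passed by 14775 genes, 9 of the 10 among them (all but OVOL1). Counts came from RNA-Seq of MCF10A, a non-transformed line of human breast epithelium, which in all 4 groups carried a doxycycline-inducible YAP5SA allele from a lentiviral vector. YAP5SA is a form of the coactivator YAP that the Hippo kinases cannot inactivate. Cells also received either an empty vector or one that overexpresses JUN, and each was given ethanol (EtOH) as solvent or 100 ng/ml doxycycline (Dox) to induce YAP5SA. By vector and treatment the groups are vector EtOH and vector Dox, then JUN EtOH and JUN Dox, each with 3 libraries. The methods call the libraries of a group biological replicates. No group had doxycycline without the YAP5SA allele, so effects of the drug itself and of YAP5SA cannot be told apart.

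Epithelial cells are specified by a small set of transcription factors that act in overlapping layers. p63, encoded by TP63, keeps the basal layer of stratified and glandular epithelia, whereas GATA3 is known as a regulator of the luminal lineage of the breast. ELF3 and EHF are ETS factors of the epithelium-specific subfamily, the Grainyhead-like factors GRHL2 and GRHL3 maintain cell junctions and the skin barrier, OVOL1 is a zinc-finger repressor of mesenchymal genes, KLF4 and KLF5 are zinc-finger factors linked to differentiation and to proliferation of epithelial layers, and SOX9 marks progenitor cells of many epithelia. The libraries address how the AP-1 factor JUN alters the transcriptional response to YAP.

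Total counts ranged from 18594867 to 28993487 per library. Levels are given as CPM, the usual depth-scaled count of a gene, with library sizes adjusted by the TMM method. A difference was called where the Benjamini-Hochberg adjusted p of edgeR's quasi-likelihood test, adjusted over all 14775 genes, was under 0.05. The overexpressed gene JUN had 47.6 ± 10.5 and 189.7 ± 4.15 CPM in vector cells under EtOH and Dox and 1279 ± 187 and 1248 ± 92.3 CPM in JUN cells (SD, n = 3). YAP1 reads, which can come from the endogenous gene and the allele, stood at 179.4 ± 10.6, 236.5 ± 31.5, 234.4 ± 20.9 and 279.9 ± 79.3 CPM in the same order of groups. YAP1 was not called on induction in vector cells (log2 fold change 0.40, edgeR adjusted p = 0.0819) or JUN cells (0.26, edgeR adjusted p = 0.308). Nor was it called for JUN without induction (0.39, edgeR adjusted p = 0.0755) or with it (0.24, edgeR adjusted p = 0.264). Yet every vector Dox and JUN EtOH library lay above every vector EtOH library for YAP1. Neither of these 2 differences was called in 10 of 12 edgeR fits that left out 1 library, so the lack of a call depended on the fit. All 8 markers of mammary epithelial cells passed the filter on low counts, led by KRT5 with a mean of 3502 CPM. Their summed level ran from 8256 to 8448 CPM in vector cells under EtOH and 5272 to 6202 under Dox, and over 6106 to 7859 and 3852 to 6171 CPM in JUN cells under EtOH and Dox. Markers of hormone-receptor luminal cells were summed at 9.55 to 15.1 CPM over all libraries, mostly FOXA1, and PGR had no more than the floor of 3 counts in any library. Fibroblast markers summed to 8.57 to 12.3 CPM in vector cells under EtOH and 5.05 to 5.74 under Dox, and over 19.8 to 32.9 and 14.5 to 23.5 CPM in JUN cells under EtOH and Dox, with 1 of 5 at the floor in every library (COL1A2). Among immune markers PTPRC and CD3E were at the floor. CD68 alone passed the filter, at a mean of 48.5 CPM over all libraries, and made up nearly all of the immune sum. The immune sum ran from 28.1 to 29.9 CPM in vector cells under EtOH and 17.0 to 19.3 under Dox, and over 77.9 to 93.3 and 50.8 to 68.9 CPM in JUN cells under EtOH and Dox. Endothelial markers summed to 1.71 to 2.10 CPM in vector EtOH and to at most 0.735 CPM in the other groups, with CDH5 at the floor in every library. The part of these markers in the results below was not tested. All libraries came from the MCF10A line, so these sums are levels in cells of that line. Bulk counts cannot tell a change in the share of its cells that express a gene from a change of RNA per cell.

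Promoter sequence was examined for those of the 10 genes that had a window. RefSeq (GRCh38.p14) gave windows upstream of annotated starts for 7 of the 10 genes, 15 windows in all, and GRHL2, OVOL1 and SOX9 had none. The 250 bases before each start were found by exact match at 1 place each in GRCh37, the assembly equal to hg19, on which the reads had been aligned. They were searched on both strands for GGAATG, the core of the TEAD sites that YAP uses, and for TGANTCA, the AP-1 site that JUN uses. GATA3 had 6 of the 15 windows, the most of any gene. Shown 5′ to 3′ are a window each of TP63, EHF and KLF5, and the GATA3 windows that held the only matches. Capitals mark a match, which for GGAATG reads on the minus strand.
TP63 window, chr3:189348928-189349177, plus strand: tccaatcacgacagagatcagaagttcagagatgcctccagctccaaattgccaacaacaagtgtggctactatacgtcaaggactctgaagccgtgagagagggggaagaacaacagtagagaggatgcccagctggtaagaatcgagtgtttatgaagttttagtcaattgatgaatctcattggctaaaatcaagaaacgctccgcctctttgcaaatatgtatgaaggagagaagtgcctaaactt
EHF first window, chr11:34645554-34645803, plus strand: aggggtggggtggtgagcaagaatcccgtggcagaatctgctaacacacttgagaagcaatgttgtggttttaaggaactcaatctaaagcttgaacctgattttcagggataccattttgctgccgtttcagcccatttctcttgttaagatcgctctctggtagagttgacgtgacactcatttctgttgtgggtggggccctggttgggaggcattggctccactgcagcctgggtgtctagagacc
KLF5 second window, chr13:73632893-73633142, plus strand: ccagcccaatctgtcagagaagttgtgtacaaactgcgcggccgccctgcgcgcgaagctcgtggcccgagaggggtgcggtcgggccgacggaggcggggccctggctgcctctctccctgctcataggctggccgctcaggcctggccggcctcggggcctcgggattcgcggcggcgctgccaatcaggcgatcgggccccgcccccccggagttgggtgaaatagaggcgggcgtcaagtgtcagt
GATA3 first window, chr10:8087046-8087295, plus strand: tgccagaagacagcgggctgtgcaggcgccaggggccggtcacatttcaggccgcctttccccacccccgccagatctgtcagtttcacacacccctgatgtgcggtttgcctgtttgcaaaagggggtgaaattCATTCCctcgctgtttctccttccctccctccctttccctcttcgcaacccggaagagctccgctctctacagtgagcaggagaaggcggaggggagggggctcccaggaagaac
GATA3 sixth window, chr10:8102170-8102419, plus strand: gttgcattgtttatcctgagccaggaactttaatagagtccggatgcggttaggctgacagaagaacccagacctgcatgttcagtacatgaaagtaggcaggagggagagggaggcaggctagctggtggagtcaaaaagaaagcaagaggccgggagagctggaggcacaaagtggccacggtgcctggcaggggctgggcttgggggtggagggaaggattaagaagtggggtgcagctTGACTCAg
The TP63 window and the first GATA3 window lay upstream of the annotated gene, and the EHF, KLF5 and sixth GATA3 windows lay within the gene outside its annotated exons. GGAATG occurred in 1 of the 15 windows, the first of GATA3, with its first base at -115 from the start, against 11.9% of all 35116 windows in the table. TGANTCA occurred in 1 of the 15, the sixth of GATA3, at -8, against 6.57% of all windows. Neither motif stood in the windows of TP63, EHF, ELF3, KLF4, KLF5 and GRHL3. The TP63 window ended just before the first annotated base of the gene, so any start inside TP63 was not searched. Sites farther from a start were not searched either, and a link between a match and the direction of change was not tested.

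In cells with the empty vector and without induction, KLF5 was the most abundant of the 10 genes per length. Its level was 55.4 ± 4.89 CPM per kb of merged exons (SD, n = 3), followed by GATA3 at 5.57 ± 0.796 CPM per kb. EHF at 3.48 ± 0.481 and GRHL3 at 3.03 ± 0.363 CPM per kb came next, and their libraries overlapped. TP63 stood at 1.90 ± 0.166 CPM per kb, below both. GRHL2 (1.17 ± 0.205 CPM per kb), SOX9 (1.15 ± 0.0803), KLF4 (1.03 ± 0.169) and ELF3 (0.887 ± 0.279) overlapped with their neighbours in this order. OVOL1 was last with 0.0457 ± 0.0228 CPM per kb. The middle ranks differed between the groups. EHF moved from the third place to the eighth in vector Dox (0.331 ± 0.0797 CPM per kb), and to the second in JUN EtOH (6.37 ± 0.329). KLF5 was first and OVOL1 last in every group. Merged exons span all annotated isoforms, so a level per length is approximate, and the counts do not separate the isoforms of TP63.

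**Figure D1:**
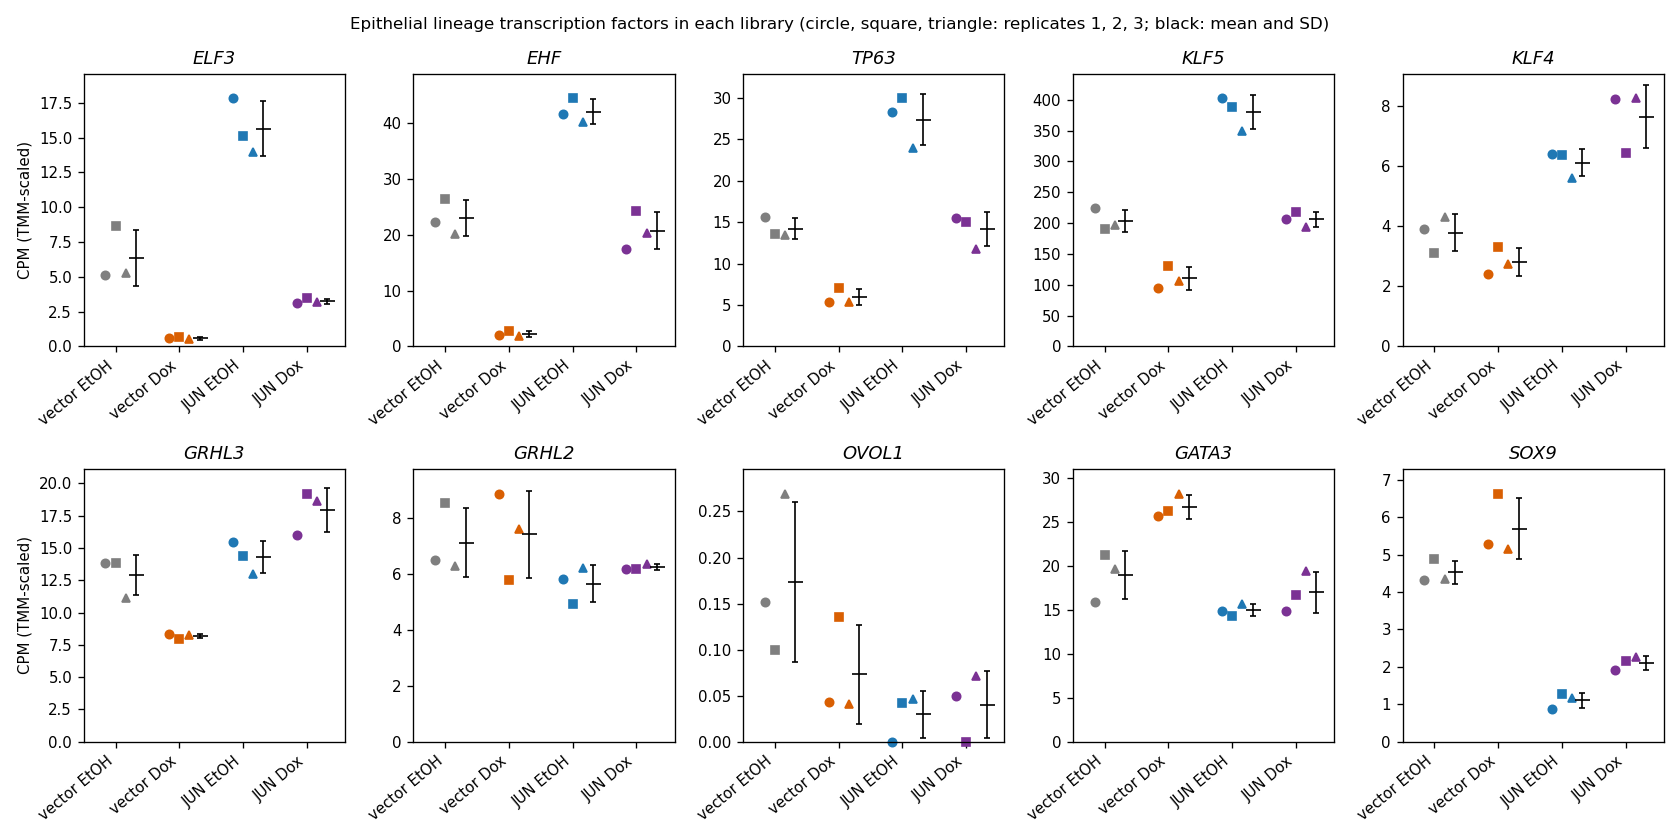
Level of each transcription factor in every library (y axis, CPM, linear from 0, own scale per gene) in the 4 groups (x axis); symbols are replicates 1 to 3, and the black mark is the mean with SD, n = 3. ELF3 and EHF were near 0 in vector Dox, at 0.580 and 2.19 CPM, and highest in JUN EtOH, whereas SOX9 was lowest in JUN EtOH at 1.11 CPM.

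The ETS factors ELF3 and EHF had the largest responses to YAP5SA induction in vector cells among the 9 tested transcription factors. EHF (Entrez gene 26298, on chromosome 11 of GRCh37 at 34642640 to 34684835, plus strand) had 22.4, 26.5 and 20.2 CPM in vector EtOH replicates 1 to 3 and 1.96, 2.79 and 1.82 CPM in vector Dox. In JUN EtOH it had 41.7, 44.5 and 40.2 CPM, and in JUN Dox 17.6, 24.3 and 20.4 CPM. The vector Dox libraries stood far below all others, the JUN EtOH libraries above all others, and JUN Dox overlapped with vector EtOH. Induction of YAP5SA lowered EHF by a log2 fold change of -3.40 (± 0.18 SE, adjusted p = 4.29e-09 by edgeR) in vector cells, a 10.5-fold difference, but by -1.02 (± 0.14 SE, adjusted p = 0.000152 by edgeR) in JUN cells. JUN overexpression raised EHF by 0.87 on the log2 scale (± 0.14 SE, adjusted p = 0.000298 by edgeR) without induction and by 3.25 (± 0.18 SE, adjusted p = 7.26e-09 by edgeR) with induction.

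ELF3 (Entrez gene 1999, chromosome 1, 201977073 to 201986311, plus strand) had 5.13, 8.68 and 5.29 CPM in vector EtOH and fell to 0.567, 0.676 and 0.496 CPM in vector Dox, where each library held 12 to 15 counts. It had 17.8, 15.1 and 13.99 CPM in JUN EtOH and 3.11, 3.46 and 3.16 CPM in JUN Dox. No pair of groups overlapped, and JUN Dox lay between vector Dox and vector EtOH. The log2 fold change on induction was -3.44 (± 0.26 SE, adjusted p = 1.36e-07 by edgeR) in vector cells and -2.27 (± 0.20 SE, adjusted p = 1.41e-06 by edgeR) in JUN cells. JUN raised ELF3 by 1.30 (log2, ± 0.19 SE, adjusted p = 8.42e-05 by edgeR) without and by 2.48 (± 0.27 SE, adjusted p = 6.46e-06 by edgeR) with induction. On GENCODE v44lift37, 664 bp of ELF3 exons overlap an antisense RNA and a further non-coding RNA on the same strand, neither of which the count table pairs with a gene ID, and strand was not stated, so the ELF3 counts are uncertain to that extent.

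TP63 and KLF5 moved in the same directions, by smaller amounts on induction in vector cells and for JUN with induction. TP63 (Entrez gene 8626, chromosome 3, 189349178 to 189615065, plus strand) had 15.7, 13.6 and 13.5 CPM in vector cells under EtOH and 5.36, 7.03 and 5.37 CPM under Dox, whereas JUN cells held 28.3, 30.0 and 23.9 CPM under EtOH and 15.6, 15.1 and 11.8 CPM under Dox. The JUN EtOH libraries were the highest and the vector Dox libraries the lowest, while the other two groups overlapped. Induction lowered TP63 by a log2 fold change of -1.27 (± 0.15 SE, adjusted p = 1.90e-05 by edgeR) in vector cells and -0.96 (± 0.14 SE, adjusted p = 0.000225 by edgeR) in JUN cells. JUN raised it by 0.94 (log2, ± 0.14 SE, adjusted p = 0.000133 by edgeR) without and 1.25 (± 0.15 SE, adjusted p = 1.925e-05 by edgeR) with induction.

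KLF5 (Entrez gene 688, chromosome 13, 73629114 to 73651679, plus strand), a factor of proliferating epithelial layers, had the most counts, 2171 to 9220 per library. Its level was 224.4, 190.7 and 196.8 CPM in vector cells under EtOH and 94.7, 131.1 and 105.9 CPM under Dox, whereas JUN cells held 402.2, 388.5 and 348.9 CPM under EtOH and 206.7, 217.2 and 193.8 CPM under Dox. Again JUN Dox overlapped with vector EtOH, and the remaining groups did not overlap. The log2 fold changes were -0.88 (± 0.12 SE, adjusted p = 7.205e-05 by edgeR) on induction in vector cells and -0.88 (± 0.12 SE, adjusted p = 0.000121 by edgeR) in JUN cells. For JUN they were 0.90 (± 0.12 SE, adjusted p = 5.85e-05 by edgeR) without and 0.90 (± 0.12 SE, adjusted p = 5.47e-05 by edgeR) with induction.

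KLF4 and GRHL3 had their highest mean in JUN Dox. GRHL3 (Entrez gene 57822, chromosome 1, 24526048 to 24690972, plus strand), a factor of the epidermal barrier, had 13.8, 13.8 and 11.1 CPM in vector cells under EtOH and 8.33, 7.98 and 8.26 CPM under Dox, whereas JUN cells held 15.5, 14.4 and 13.0 CPM under EtOH and 16.0, 19.2 and 18.6 CPM under Dox. Every vector Dox library lay below every other library, and every JUN Dox library above. Induction lowered GRHL3 by -0.66 (log2, ± 0.13 SE, adjusted p = 0.00114 by edgeR) in vector cells. In JUN cells the log2 fold change was 0.33 (SE 0.12), which did not pass the threshold (edgeR adjusted p = 0.0669). It passed without JUN Dox replicate 1 (0.40, edgeR adjusted p = 0.0355), and its adjusted p ran from 0.0355 to 0.213 over the alternatives. JUN raised GRHL3 by 1.13 (log2, ± 0.125 SE, adjusted p = 7.46e-06 by edgeR) with induction, while the value without induction was 0.15 (± 0.12 SE, adjusted p = 0.364 by edgeR).

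KLF4 (Entrez gene 9314, chromosome 9, 110247133 to 110252763, minus strand), a factor of terminal differentiation, had 3.92, 3.09 and 4.31 CPM in vector cells under EtOH and 2.40, 3.29 and 2.73 CPM under Dox, whereas JUN cells held 6.38, 6.36 and 5.59 CPM under EtOH and 8.23, 6.44 and 8.24 CPM under Dox. All JUN libraries lay above all vector libraries, and the EtOH and Dox libraries of the vector cells overlapped. JUN raised KLF4 by a log2 fold change of 0.69 (± 0.18 SE, adjusted p = 0.00655 by edgeR) without and 1.445 (± 0.18 SE, adjusted p = 2.25e-05 by edgeR) with induction. The induction values were -0.43 (± 0.19 SE, adjusted p = 0.0944 by edgeR) in vector cells and 0.32 (± 0.17 SE, adjusted p = 0.1998 by edgeR) in JUN cells, neither past the threshold. An unnamed non-coding RNA on the opposite strand overlaps 357 bp of KLF4 exons.

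GATA3 and SOX9 had the opposite pattern with JUN. SOX9 (Entrez gene 6662, chromosome 17, 70117161 to 70122557, plus strand), a progenitor factor, had 4.33, 4.89 and 4.35 CPM in vector cells under EtOH and 5.28, 6.63 and 5.16 CPM under Dox, whereas JUN cells held 0.880, 1.26 and 1.17 CPM under EtOH and 1.91, 2.16 and 2.27 CPM under Dox. No groups overlapped, and each JUN library lay below every vector library, at 20 to 64 counts. JUN lowered SOX9 by a log2 fold change of -2.025 (± 0.20 SE, adjusted p = 2.69e-06 by edgeR) without and -1.42 (± 0.18 SE, adjusted p = 3.21e-05 by edgeR) with induction. Induction raised it by 0.94 (± 0.21 SE, adjusted p = 0.00553 by edgeR) in JUN cells, and the value in vector cells was 0.33 (± 0.17 SE, adjusted p = 0.165 by edgeR).

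GATA3 (Entrez gene 2625, chromosome 10, 8087341 to 8117161, plus strand) had 15.9, 21.2 and 19.6 CPM in vector cells under EtOH and 25.6, 26.2 and 28.2 CPM under Dox, whereas JUN cells held 14.9, 14.3 and 15.7 CPM under EtOH and 14.9, 16.6 and 19.4 CPM under Dox. The vector Dox libraries were above all others, and the JUN groups overlapped with each other. GATA3 rose by 0.50 (log2, ± 0.12 SE, adjusted p = 0.00727 by edgeR) on induction in vector cells, and the value in JUN cells was 0.19 (± 0.13 SE, adjusted p = 0.341 by edgeR). With induction, JUN lowered it by -0.65 (log2, ± 0.13 SE, adjusted p = 0.00110 by edgeR). Without induction the JUN difference of -0.34 (± 0.13 SE, adjusted p = 0.0477 by edgeR) was at the edge of the threshold. Leaving out 1 library at a time removed this call in 8 of 12 fits, where the edgeR adjusted p was 0.194 without vector EtOH replicate 2, 0.133 without vector EtOH replicate 3, 0.118, 0.137 and 0.0650 without JUN EtOH replicates 1, 2 and 3, 0.0549 and 0.0583 without vector Dox replicates 2 and 3, and 0.0630 without JUN Dox replicate 2. Across every alternative it ran from 0.0176 to 0.194.

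GRHL2 and OVOL1 showed no call. GRHL2 (Entrez gene 79977, chromosome 8, 102504667 to 102681954, plus strand), which maintains epithelial junctions, had 6.28 to 8.53 CPM in vector cells under EtOH and 5.77 to 8.85 under Dox, and over 4.93 to 6.20 and 6.17 to 6.36 CPM in JUN cells under EtOH and Dox. Its log2 fold changes were 0.06 and 0.15 on induction in vector and JUN cells and -0.33 and -0.25 for JUN without and with induction, with SE of 0.17 to 0.18 and edgeR adjusted p of 0.1496 to 0.812. Its paralog GRHL3 was called in 2 pairwise comparisons where GRHL2 was not, although the difference between the paralogs was not tested. OVOL1 (Entrez gene 5017, chromosome 11, 65554534 to 65564685, plus strand) did not pass the filter. It had 4, 2 and 6 counts in the vector cells under EtOH and 1, 3 and 1 under Dox, and 0, 1 and 1 counts in the JUN cells under EtOH and 1, 0 and 2 under Dox. Its highest level was 0.269 CPM, in vector EtOH replicate 3, and the floor of 3 counts lay between 0.107 and 0.1505 CPM. A non-coding RNA on the opposite strand overlaps 1039 bp of its exons. The libraries of vector EtOH lay above those of JUN EtOH. In the fit without a filter, OVOL1 was not called in any comparison (edgeR adjusted p = 0.112 to 0.983), and at such counts a difference could be missed.

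**Figure D2:**
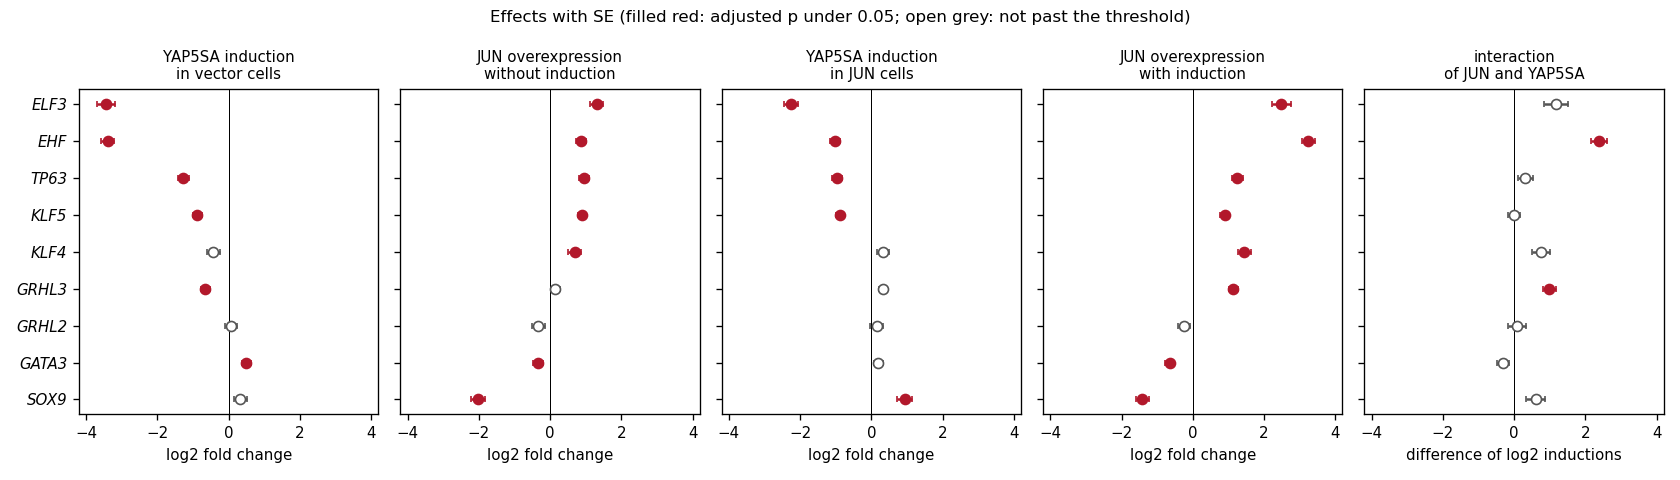
Log2 fold change with SE (x axis) of the 9 tested transcription factors (y axis) in the 4 pairwise comparisons, and the difference of the inductions in the last panel; filled red points had an edgeR adjusted p under 0.05. ELF3, EHF, TP63 and KLF5 lay left of 0 in both induction panels and right of 0 in both JUN panels, and SOX9 and GATA3 lay left of 0 in both JUN panels.

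The 5 comparisons used the same 12 libraries in pairs that share groups, so their values are set side by side and are not independent. On induction in vector cells, 6 of the 9 tested genes were called, 1 higher (GATA3) and 5 lower, where 30.1% of all 14775 tested genes were called, 15.6% higher and 14.4% lower. The 2 groups of libraries did not overlap for 7 of the 9, against 43.9% of all genes. The median log2 fold change of the 9 was -0.66, against 0.01 for all genes. JUN without induction gave 7 calls, 5 higher and 2 lower, against a background of 39.0% (20.1% higher, 18.9% lower), and medians of 0.69 and 0.00, with 8 not overlapping against 57.8%. On induction in JUN cells, 5 were called, 1 higher (SOX9) and 4 lower, against 21.4% of all genes (11.2% higher, 10.3% lower), and 7 did not overlap against 39.3%. There the median of the 9 was 0.15 and so differed in sign from most of its calls. JUN with induction gave 8 calls, 6 higher and 2 lower, against 35.6% (18.4% higher, 17.2% lower), with a median of 1.13 against 0.00, and 8 not overlapping against 43.4%. The genes were chosen with earlier results of these data known, so these shares describe them and test nothing.

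Whether the YAP5SA response itself differed between JUN and vector cells was read from the interaction, the log2 induction of JUN cells less that of vector cells. Of the 9 genes, 2 were called, both above 0, where 1.12% of all genes were called, 0.291% above 0 and 0.826% below. EHF had an interaction of 2.38 (± 0.23 SE, adjusted p = 6.13e-05 by edgeR), a fall of 10.5-fold without the JUN vector against 2.03-fold with it. GRHL3 had 0.99 (± 0.17 SE, adjusted p = 0.00967 by edgeR). Both calls held in all 12 fits that left out 1 library. ELF3 had 1.17 (SE 0.33), which did not pass after adjustment over all genes (edgeR adjusted p = 0.137, and 0.0718 to 0.317 over the alternatives). KLF4 at 0.75 (± 0.25 SE, adjusted p = 0.233 by edgeR), SOX9 at 0.61 (± 0.27 SE, adjusted p = 0.518 by edgeR), TP63 at 0.31 (± 0.21 SE, adjusted p = 0.775 by edgeR) and GATA3 at -0.31 (± 0.18 SE, adjusted p = 0.704 by edgeR) did not pass either. KLF5 had the smallest interaction, 0.0004 (± 0.16 SE, adjusted p = 1.00 by edgeR), with inductions of -0.88 in both kinds of cell.

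**Figure D3:**
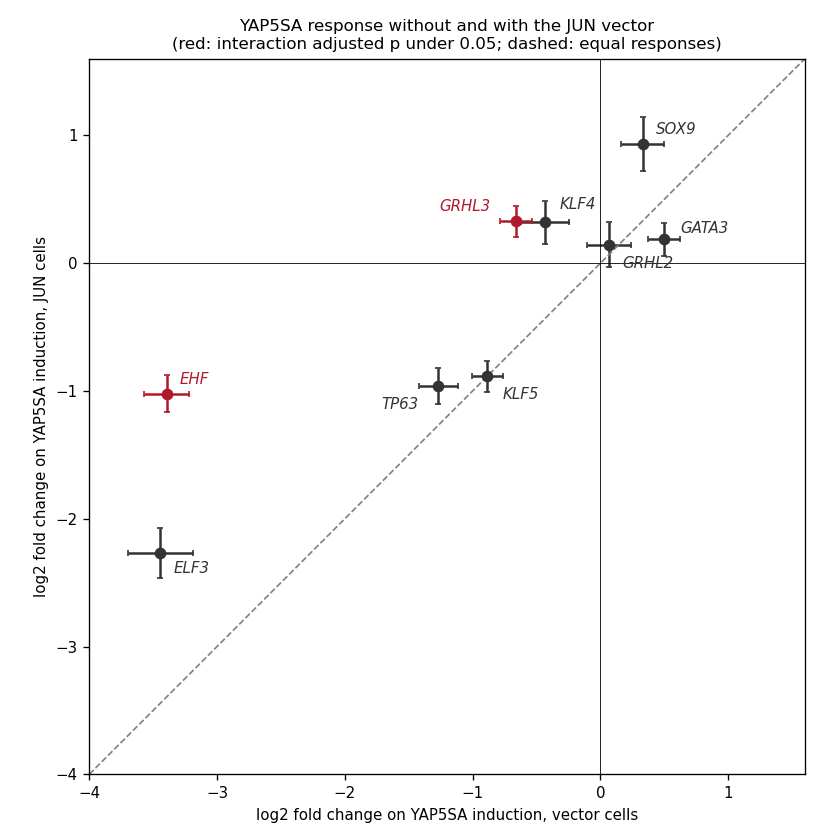
Log2 fold change on YAP5SA induction in vector cells (x axis) and in JUN cells (y axis) for the 9 tested genes, with SE as bars and a dashed line of equal responses; red marks an interaction with an edgeR adjusted p under 0.05. KLF5 sat on the line, while EHF (-3.40 and -1.02) and GRHL3 (-0.66 and 0.33) lay above it.

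The genes with the most similar library-by-library pattern were then named, by the root mean square (RMS) difference of gene-centred log2 CPM over the 12 libraries among the 11404 tested genes whose mean reached 5 CPM. ALOX15B was among the 2 genes nearest to EHF (RMS difference 0.443), with 43.2 and 6.35 CPM in vector cells under EtOH and Dox and 168.1 and 52.3 CPM in JUN cells. ELF3 was nearest to PNRC1 (0.360) and FPR1 (0.375). The spread of EHF and ELF3 themselves over the libraries was 1.62 and 1.68 RMS on the log2 scale. TP63 was nearest to CCNG2 (0.143) and CHST15 (0.159), KLF5 to MR1 (0.110) and ITGA2 (0.121), KLF4 to CYLD (0.128) and HERC3 (0.183), and GRHL3 to SPSB1 (0.189) and ANKMY2 (0.206). GATA3 was nearest to AGAP3 (0.117) and SRXN1 (0.118), and SOX9 to HES7 (0.168) and CHDH (0.190). Among the 9 genes themselves, TP63 and KLF5 were the closest pair (0.181), followed by GATA3 and GRHL2 (0.261), GRHL3 and KLF4 (0.322) and ELF3 and EHF (0.468). The RMS difference is not scaled to a gene's own spread, which was only 0.334 for GATA3. Genes that vary little can thus come out close without a shared pattern.

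Paralogs of the 10 genes were examined next, 43 genes of the same families as the 10, such as the GATA, ETS, Grainyhead-like, OVOL, KLF and SOX factors, of which 30 passed the filter. On induction in vector cells, 3 of the 30 were called higher and 10 lower (43.3% called, against 30.1% of all genes). Their median log2 fold change was -0.26, against the medians of all genes given above. JUN without induction called 14 higher and 9 lower (76.7% against 39.0%, median 0.09). Induction in JUN cells called 2 higher and 12 lower (46.7% against 21.4%, median -0.38), and JUN with induction 12 higher and 6 lower (60.0% against 35.6%, median -0.04). The interaction called 0 of the 30 with edgeR after adjustment (against 1.12% of all genes) and 0 with DESeq2, and 5 had an unadjusted p under 0.05. KLF9, a hormone-responsive member of the KLF family, fell most on induction in vector cells (-1.77, SE 0.19, edgeR adjusted p = 5.60e-06) and in JUN cells (-1.82, SE 0.17, edgeR adjusted p = 3.37e-06), and rose with JUN without induction (1.23, SE 0.17, edgeR adjusted p = 5.85e-05). KLF10, a gene of the TGF-beta response, fell by a log2 fold change of -1.20 (± 0.13 SE, adjusted p = 7.84e-06 by edgeR) on induction in vector cells, whereas KLF6 rose by 0.71 (± 0.15 SE, adjusted p = 0.00208 by edgeR).

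OVOL2, the paralog of OVOL1 that was expressed here, had 12.03 ± 2.002 and 13.1 ± 1.98 CPM in vector cells under EtOH and Dox and 4.88 ± 0.513 and 4.42 ± 0.453 CPM in JUN cells (SD, n = 3). JUN lowered it by a log2 fold change of -1.30 (± 0.16 SE, adjusted p = 2.77e-05 by edgeR) without and -1.56 (± 0.16 SE, adjusted p = 4.57e-06 by edgeR) with induction. Its exons overlap 59 bp of SNX5 on the same strand, and the mean count per library was 199.6 for OVOL2 and 1504 for SNX5. How far SNX5 reads entered the OVOL2 counts was not tested. GRHL1 stayed at 0.968 to 1.33 CPM as a group mean and was not called in any comparison (edgeR adjusted p = 0.465 to 0.950). ELF5, a luminal progenitor factor of the same ETS subfamily as ELF3 and EHF, had at most 2 counts in a library. TP73 had group means of 0.398 to 1.11 CPM, and its calls on induction in vector cells (edgeR adjusted p = 0.0491) and for JUN without induction (edgeR adjusted p = 0.0358) were lost in 11 and 5 of 12 fits that left out 1 library, with ranges over the alternatives of 0.0274 to 0.262 and 0.0221 to 0.195.

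Of 36 other regulators of epithelial identity, 23 passed the filter. On induction in vector cells 5 were called higher and 7 lower (52.2% called, against 30.1% of all genes), and on induction in JUN cells 3 and 9 (52.2% against 21.4%). JUN called 7 higher and 6 lower both without induction (56.5% against 39.0%) and with it (56.5% against 35.6%). The interaction called 2 of the 23, 1 in each direction (8.70% against 1.12%). CEBPB, a factor of differentiation and inflammation, fell on induction in vector and JUN cells by -1.65 (± 0.10 SE, adjusted p = 2.37e-08 by edgeR) and -1.46 (± 0.10 SE, adjusted p = 2.27e-07 by edgeR). PRDM1, which encodes the repressor BLIMP1, rose with JUN from 3.51 ± 0.445 to 29.2 ± 5.86 CPM without induction (log2 fold change 3.05 ± 0.21 SE, adjusted p = 6.12e-08 by edgeR). TFAP2C, an AP-2 factor of mammary epithelium, moved in the directions of GATA3, with a rise of 0.58 (log2, ± 0.11 SE, adjusted p = 0.00105 by edgeR) on induction in vector cells and a fall with JUN of -0.81 (± 0.12 SE, adjusted p = 8.83e-05 by edgeR) without and -1.40 (± 0.11 SE, adjusted p = 3.77e-07 by edgeR) with induction.

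Genes known as markers or targets of these factors, such as keratins, junction and cornified envelope genes, were counted last. Of 26 such genes 20 passed the filter, and 1 was called higher and 8 lower on induction in vector cells (45% called, against 30.1% of all genes). Induction in JUN cells called 1 higher and 9 lower (50% against 21.4%), JUN without induction 7 and 6 (65% against 39.0%) and JUN with induction 7 and 5 (60% against 35.6%). The interaction called 1 of the 20, below 0 (5% against 1.12%). The median log2 fold changes were -0.54 for both inductions, and -0.08 and 0.08 for JUN without and with induction. DSG3, a desmosomal cadherin, fell by -1.97 (± 0.12 SE, adjusted p = 2.81e-08 by edgeR) and -1.69 (± 0.12 SE, adjusted p = 3.13e-07 by edgeR) on induction in vector and JUN cells. KRT14, a basal keratin whose gene p63 controls, fell by a log2 fold change of -1.65 (± 0.26 SE, adjusted p = 0.000257 by edgeR) on induction in vector cells and was higher with JUN under induction by 2.07 (± 0.27 SE, adjusted p = 3.34e-05 by edgeR). The adhesion gene EPCAM fell with JUN from 145.9 ± 15.0 to 43.0 ± 2.15 CPM without induction (log2 fold change -1.76 ± 0.12 SE, adjusted p = 5.83e-08 by edgeR). TGM1, a cross-linking enzyme of the cornified envelope and a known GRHL3 target, rose on induction in vector cells by 0.92 (log2, ± 0.12 SE, adjusted p = 4.47e-05 by edgeR), where GRHL3 fell. In JUN cells TGM1 rose by 0.58 (± 0.13 SE, adjusted p = 0.00465 by edgeR), where GRHL3 was not called. With JUN, TGM1 fell by -1.30 (± 0.13 SE, adjusted p = 2.39e-06 by edgeR) without induction, where GRHL3 was not called. It fell by -1.64 (± 0.12 SE, adjusted p = 1.73e-07 by edgeR) under induction, where GRHL3 rose. Links between the factors and these genes were not tested. LCN2 rose most with JUN, from 0.997 ± 0.266 to 16.1 ± 1.52 CPM without induction (log2 fold change 4.01 ± 0.25 SE, adjusted p = 2.93e-08 by edgeR).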

How the data were processed

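The authors sequenced poly(A) RNA as single-end reads, trimmed them with Cutadapt, aligned them to hg19 with Bowtie2 and counted them per gene with countOverlaps. The submitters' processing notes name cutadapt 4.2 and Bowtie2 2.3.5.1. The gene annotation and the use of strand are not given in the sources used here, and Bowtie2 does not split reads across introns. The authors deposited raw counts per Entrez gene without normalization, and all 12 columns matched 1 sample each by name.

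Symbols came from RefSeq (99.4% of IDs), and positions from GENCODE v44lift37. edgeR's filterByExpr was run with the 4 groups at a count of 10 and a total of 15, which left 14775. One edgeR 4.0.16 quasi-likelihood model (TMM, robust, R 4.3.3, group means only) was fitted to all 12 libraries, and tests were adjusted over all tested genes by the Benjamini-Hochberg method and called at an adjusted p under 0.05. An SE was obtained as the absolute log2 fold change over the root of F. The test was also run on simulated counts. CPM used TMM-scaled library sizes. Without molecular identifiers, a floor describes counting error and no other.

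Genes and lists were chosen with earlier results of these data known. All 10 factors were named, and of the 3 other lists, per comparison, the text draws on called genes at both extremes of log2 fold change (2 at each end, mean of 5 CPM or more), plus GRHL1, OVOL2, ELF5 and TP73. Some genes that this rule names are not reported here. Alternatives were DESeq2 1.42.0, RLE or upper-quartile factors, no filter, a 5 CPM filter, fits to the compared groups alone, a replicate block, omission of each library and a threshold test (log2 fold change over 1), and ranges of adjusted p leave out the last.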

Additional observations from a re-analysis of the deposited data

Results flagged for a closer look

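The YAP5SA response differed between JUN and vector cells for the following genes by the edgeR interaction test. EHF had an interaction of 2.38 (log2), with falls of -3.40 in vector and -1.02 in JUN cells. GRHL3 had 0.99, from -0.66 to 0.33. Among the other epithelial regulators, ZNF217 had -0.97 (± 0.19 SE, adjusted p = 0.0158 by edgeR), at 39.6 ± 2.33 and 67.3 ± 12.6 CPM in vector cells under EtOH and Dox and 62.4 ± 7.20 and 53.95 ± 4.93 CPM in JUN cells (SD, n = 3). Among the target genes, CDH1, which encodes E-cadherin, had -1.03 (± 0.17 SE, adjusted p = 0.00541 by edgeR), at 129.4 ± 8.13 and 129.2 ± 15.5 CPM in vector cells under EtOH and Dox and 120.2 ± 5.23 and 58.7 ± 9.45 CPM in JUN cells (SD, n = 3).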

How the results depend on the processing

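Over 886 values of single transcription factors under an alternative, 854 kept their side of the threshold, 31 lost the call and 1 gained it. The sign changed in 13 of the 854, none of them called: 2 for GRHL2 on induction in vector cells, 3 for the GRHL2 interaction and 8 for the KLF5 interaction. The numbers of genes called fell when a log2 fold change over 1 was asked for, to 2 on induction in vector cells (ELF3, EHF), 1 for JUN without induction (SOX9), 1 on induction in JUN cells (ELF3), 2 for JUN with induction (ELF3, EHF) and 1 in the interaction (EHF), since that test asks for more than a 2-fold change. Besides those losses and the fits without 1 library given for GATA3, the GATA3 difference for JUN without induction was lost without a filter (edgeR adjusted p = 0.0636) and at a mean of at least 5 CPM (0.0561). Leaving out each library gave 6, 6 to 7, 5 to 6, 8 and 2 calls in the 5 comparisons. DESeq2 called 340 genes in the interaction against 165 with edgeR, and upper-quartile factors moved the share of higher calls among all calls less than 10 percentage points (52.0% to 43.4% on induction in vector cells at most). Libraries with the same replicate number had correlations of their deviations of -0.258 to 0.466 (18 pairs, median 0.088, 7 over 0.1). Those with different numbers had -0.470 to 0.315 (36 pairs, median -0.048, 5 over 0.1). Same-numbered libraries had the higher median but did not all deviate together, and the numbers were not read as pairs. With the replicate block, 6, 7, 5, 8 and 2 of the genes were called in the 5 comparisons, as without it. Few counts limited what could be read for OVOL1 and ELF5. In vector Dox the level of ELF3 rested on 12 to 15 counts per library.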
